A study of Mus musculus with 12 samples.

Results

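The TGF-β ligands Tgfb1, Tgfb2 and Tgfb3, the receptors Tgfbr1, Tgfbr2 and Tgfbr3, and the latency proteins Ltbp1, Ltbp2, Ltbp3 and Ltbp4 were followed in embryonic mouse tongues taken at day 13.5 of development. These are 10 of the 18193 genes measured, and they were taken by name. Every probe set annotated to 1 of these symbols was used, 24 in all, and the brightest over the 12 arrays gave the value of each gene. Mutant embryos carried Myf5-Cre;Smad4flox/flox and control embryos Myf5-Cre;Smad4flox/+, both on C57BL/6J, with 6 arrays of each genotype that the labels call biological replicates. All 12 samples thus carried the Cre transgene and at least 1 floxed Smad4 allele, and the controls kept 1 wild-type allele. Cre under Myf5 control is known to act in the muscle lineage, while the arrays measured the whole tongue with all its cell types. The values are log2 signals of Affymetrix mouse genome arrays. The number of arrays limits their precision, and p-values weigh the difference between genotypes against the spread between these samples within a genotype.

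TGF-β is secreted in an inactive form. The propeptide stays wrapped around the mature dimer, and a latent TGF-β binding protein, encoded by an Ltbp gene, ties the complex to the fibrils of the extracellular matrix until integrins, proteases or other agents release it. Free ligand binds the type II receptor (Tgfbr2), which phosphorylates the type I receptor (Tgfbr1), and betaglycan (Tgfbr3) presents ligand, TGF-β2 above all, to this pair. The active receptors phosphorylate SMAD2 and SMAD3, which enter the nucleus with SMAD4. In developing skeletal muscle the pathway is known to restrain differentiation and fusion of myoblasts and to act between muscle, tendon and connective tissue.

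Several arrays stood apart. A principal component analysis put 25.2% of the variance on its leading axis, where every mutant scored higher than every control. Mutants 1 and 2 had the highest scores, 33.1 and 26.9, and mutant 5 the lowest of the mutants, 5.22. Control 3, mutant 4 and mutant 6 carried signal of both sexes, and control 6 and mutant 6 had the lowest 3′ signals of 18S RNA, 12.65 for the control and less for the mutant, where the other arrays read 13.55 to 14.03. Values without these 3 sets of arrays are given where they ended a call. Smad4 itself did not pass, with 12.14 ± 0.27 in mutants and 12.29 ± 0.07 in controls (SD, n = 6 each), and its probe sets do not check the genotype, since the exon they cover relative to the floxed one was not checked. Of 12 skeletal muscle markers 11 were lower in the mutant and none higher (limma, adjusted p under 0.05), where 4.80% of all genes were lower and 6.30% higher. The sum of the linear signals of these markers was 77323 to 100368 on mutant arrays and 109909 to 131265 on control arrays. Fewer cells of a type and less RNA per cell cannot be told apart in whole tissue.

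Of the 10 members, Ltbp1 and Tgfbr3 rose in the mutant and none fell (limma, adjusted p under 0.05 over all genes). Among all genes 11.1% passed, 6.30% higher and 4.80% lower. No member was lower even at an unadjusted p under 0.05. With 10 members these counts are a description of single genes. The changes were small, 1.23-fold for Ltbp1 and 1.24-fold for Tgfbr3. None of the 3 ligands passed, nor did either signalling receptor or the other 3 latency proteins. The median difference over the members was 0.03 on the log2 scale, against 0.01 over all genes. Of the 10 members 7 lay above 0, as did 9633 of all 18193 genes.

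**Figure D1:**
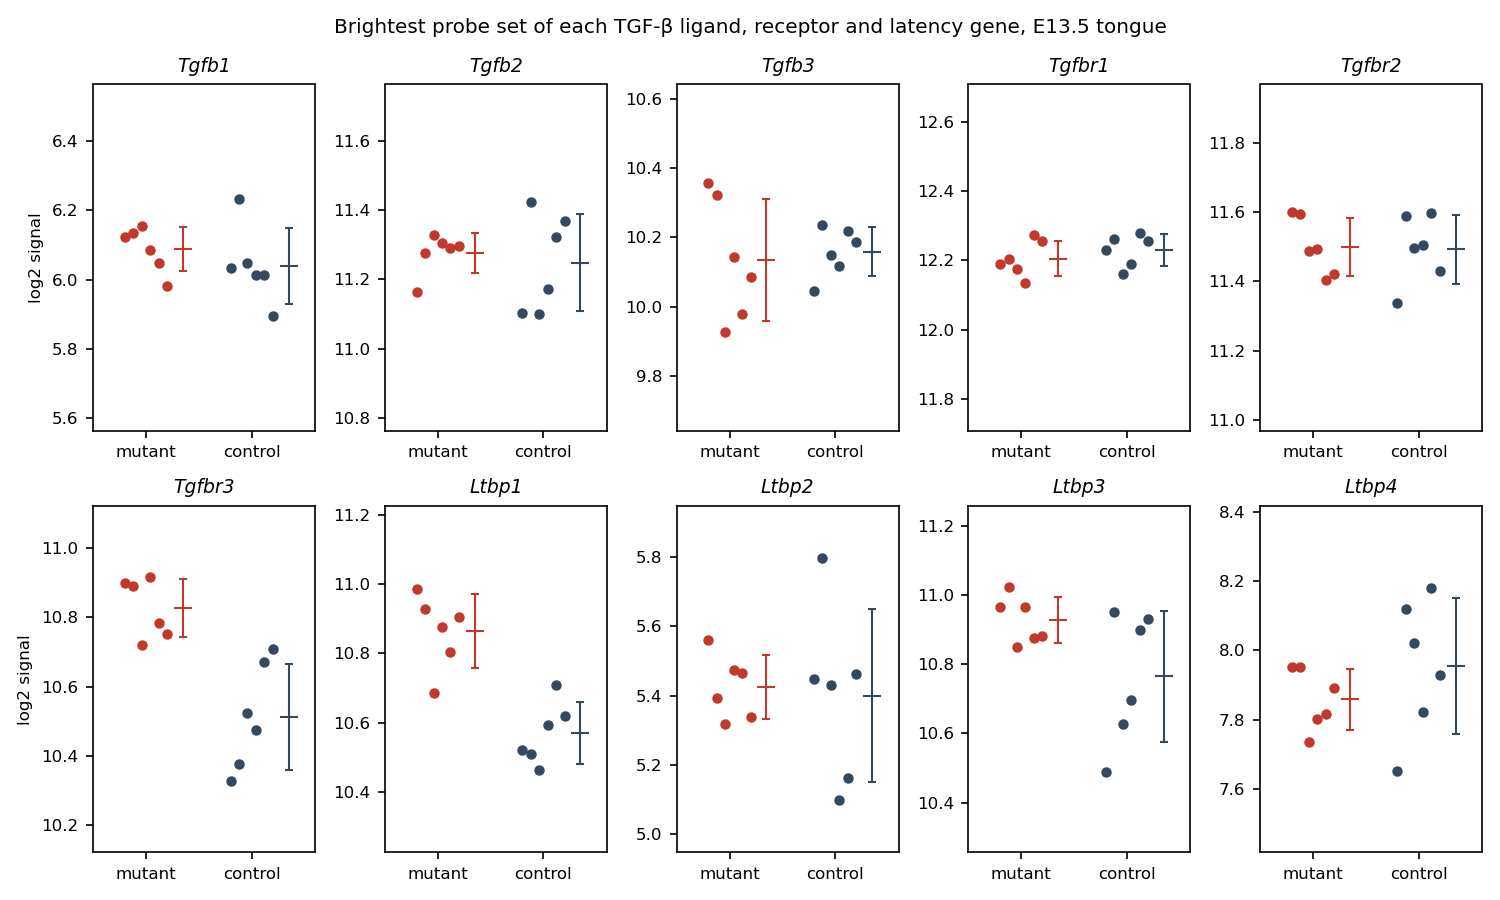
Log2 signal (y axis) of the brightest probe set of each gene, 1 point per array, for 6 mutant (red, left) and 6 control (grey-blue, right) tongues. Bars show mean ± SD, and every panel spans 1 log2 unit. Tgfbr3 is the gene whose groups do not overlap, 1 mutant array of Ltbp1 lies under the highest control, and mutant arrays of Tgfb3 lie on both sides of the controls.

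Among the ligands, Tgfb2, the isoform with the greatest need of betaglycan, was at nearly the same level in both genotypes. Its lowest, median and highest signals were 11.16, 11.29 and 11.33 in mutants, and 11.10, 11.25 and 11.42 in controls. The mutant arrays lay wholly inside the range of the controls. The difference was 0.03 ± 0.06 (SE), with a 95% confidence interval of −0.11 to 0.16 and an adjusted p of 0.836 from limma, so a change of more than 1.12-fold upwards or to below 0.929-fold lies outside the interval. All 4 Tgfb2 probe sets were bright, and they differed by 0.03, 0.03, −0.12 and −0.05. The one at −0.12 had 10.70 ± 0.12 in mutants and 10.82 ± 0.06 in controls. Of its 6 mutant arrays 4 fell short of all controls, and it did not pass (limma adjusted p = 0.273 among probe sets).

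Tgfb3, known for its part in palate fusion and also made by embryonic mesenchyme, had 10.14 ± 0.18 in mutants and 10.16 ± 0.07 in controls. Its mean difference was −0.02 ± 0.07 (SE; 95% interval −0.18 to 0.13; limma adjusted p = 0.885). The near-equal means covered mutant arrays that lay apart. Mutants 1 and 2 read 10.36 and 10.32, mutants 4 and 6 read 10.14 and 10.08, and mutants 5 and 3 read 9.98 and 9.93, against 10.05 to 10.24 over the controls. Thus 2 mutant arrays were above every control and 2 were below every control. Mutants 1 and 2 are the arrays farthest out on the first principal component, and without them Tgfb3 differed by −0.13 (adjusted p = 0.289). The difference in spread between the genotypes was not tested.

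Tgfb1, a ligand made chiefly by blood, endothelial and immune cells in many tissues, was dim. Its brightest probe set lay under the median of all probe sets (6.13), at 6.09 ± 0.06 in mutants and 6.04 ± 0.11 in controls, and a dimmer one read 5.02 ± 0.07 in mutants and 5.08 ± 0.14 in controls. They differed by 0.05 and −0.06, and neither passed. The 95% interval of the brighter one was −0.07 to 0.17.

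Both signalling receptors were bright and even. Tgfbr1, the type I kinase, had its lowest, median and highest signals at 12.14, 12.20 and 12.27 in mutants, and at 12.16, 12.24 and 12.28 in controls. Its pooled SD within genotypes, 0.049, was the smallest of the 10 members. The median was 0.123 over all genes and 0.108 over the genes that were not dim. The groups overlapped almost completely, and the difference of −0.03 ± 0.04 (SE; limma adjusted p = 0.771) had a 95% interval of −0.11 to 0.06, or 0.925-fold to 1.04-fold. Tgfbr2, the type II kinase that binds ligand first, read 11.40, 11.49 and 11.60 in mutants, and 11.34, 11.50 and 11.60 in controls. It differed by 0.01 ± 0.06 (SE; 95% interval −0.11 to 0.13; limma adjusted p = 0.959), the smallest difference among the members. The remaining probe sets of Tgfbr1, at 5.65 and 4.29 over all arrays, and of Tgfbr2, at 6.14 and 3.28, were near or under the median and none passed.

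Tgfbr3, the co-receptor betaglycan, rose. Its signals on mutants 1 to 6 were 10.90, 10.89, 10.72, 10.92, 10.78 and 10.75, and on controls 1 to 6 they were 10.33, 10.38, 10.53, 10.47, 10.67 and 10.71. Every mutant array was above every control, though mutant 3 exceeded control 6 by little. Among all genes 6.30% had groups that did not overlap, 3.40% with the mutant higher and 2.90% with it lower. The rise was 0.31 ± 0.07 (SE; 95% interval 0.16 to 0.46; limma adjusted p = 0.0108), or 1.24-fold. The control arrays spread more widely, with an SD of 0.15, than the mutant arrays, with 0.08. A dim probe set of the gene read 4.48 ± 0.22 in mutants and 4.60 ± 0.21 in controls, a difference of −0.12 that did not pass, and with both probe sets averaged the gene differed by 0.10 (adjusted p = 0.458). The call also ended without mutants 1 and 2, at 0.28 (adjusted p = 0.0741), and without control 3, mutant 4 and mutant 6, at 0.31 (adjusted p = 0.0725), with fewer arrays tested.

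Ltbp1, which anchors latent TGF-β to fibronectin and fibrillin in the matrix, was the member with the smallest p. Mutants 1 to 6 read 10.99, 10.93, 10.69, 10.88, 10.80 and 10.91, and controls 1 to 6 read 10.52, 10.51, 10.46, 10.59, 10.71 and 10.62. On 5 of 6 mutant arrays the gene was above every control, and mutant 3 lay just under control 5. The rise was 0.29 ± 0.06 (SE; 95% interval 0.17 to 0.42; limma adjusted p = 0.00552). A second probe set, at 6.51 ± 0.27 in mutants and 6.19 ± 0.22 in controls, gave 0.31 and did not pass when all probe sets were tested (adjusted p = 0.165), and the remaining one, which was dim, differed by −0.01. Without control 3, mutant 4 and mutant 6 the difference was 0.26 (adjusted p = 0.0681), and without mutants 1 and 2 it was 0.25 (adjusted p = 0.0466).

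Ltbp1 is known to be transcribed from a pair of start sites that give a long and a short protein, and the array values do not say which was used. The 250 bases before each start that RefSeq annotates in GRCm38.p6 are shown because Ltbp1 had the strongest call, with those of Tgfb2 as a bright member that did not pass. Capitals mark CAGAC or, on the other strand, GTCTG, letters that SMAD3 and SMAD4 are known to bind. The first Ltbp1 window is chr17:75005279-75005528 and the second chr17:75178531-75178780, both on the + strand, and the Tgfb2 window is chr1:186705990-186706239 on the − strand.
Ltbp1 first start: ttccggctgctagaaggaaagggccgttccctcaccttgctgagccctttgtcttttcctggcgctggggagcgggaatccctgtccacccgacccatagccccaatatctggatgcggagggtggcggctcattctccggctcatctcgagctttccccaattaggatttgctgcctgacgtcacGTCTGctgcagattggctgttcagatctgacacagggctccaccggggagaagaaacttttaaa
Ltbp1 second start: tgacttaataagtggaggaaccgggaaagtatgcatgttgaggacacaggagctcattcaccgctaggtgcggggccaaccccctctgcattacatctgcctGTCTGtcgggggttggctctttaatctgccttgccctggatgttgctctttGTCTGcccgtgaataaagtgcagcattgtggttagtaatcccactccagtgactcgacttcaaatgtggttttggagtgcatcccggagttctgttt
Tgfb2: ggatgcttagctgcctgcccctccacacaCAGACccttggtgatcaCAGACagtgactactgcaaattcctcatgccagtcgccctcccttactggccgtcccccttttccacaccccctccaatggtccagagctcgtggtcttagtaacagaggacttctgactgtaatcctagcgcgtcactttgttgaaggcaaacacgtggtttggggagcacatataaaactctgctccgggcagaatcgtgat

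The first Ltbp1 window holds the marked letters at 1 place and the second at 2 places, and the Tgfb2 window, whose gene did not pass, also holds them at 2. RefSeq windows were matched for 8 of the 10 members, 12 windows in all, and 7 of the 12 held CAGAC on either strand, against 42.2% of 32851 windows over all genes. The windows of Ltbp4 starts 1 and 2 share most of their bases, so the 12 are not all separate sequences. The longer SMAD palindrome GTCTAGAC was in none of the 12 and in 0.167% of all windows. TGACGTCA, the cyclic AMP response element, was in 1 of the 12, the first Ltbp1 window, and in 1.55% of all. CANNTG, the E-box read by myogenic factors and many others, was in 8 of the 12 and in 66.2% of all. Matches of letters are a description.

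Ltbp3, which like Ltbp1 binds the latent propeptide and is known for its part in skeletal growth, did not pass but leaned the same way in both of its bright probe sets. The brightest read 10.85, 10.92 and 11.02 (lowest, median and highest) in mutants, and 10.49, 10.80 and 10.95 in controls. Mutant arrays lay at the upper end of the controls, and 3 of 6 were above all of them. The difference was 0.16 ± 0.08 (SE; 95% interval −0.005 to 0.33; limma adjusted p = 0.216), and for the other bright one it was 0.18 (adjusted p = 0.147 when all probe sets were tested). The deviations of these probe sets from their genotype means ran together over the 12 arrays (Pearson r = 0.78).

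Ltbp4, which also guides elastic fibre assembly, read 7.86 ± 0.09 in mutants and 7.95 ± 0.20 in controls. Its difference of −0.10 ± 0.08 (SE; 95% interval −0.27 to 0.08; limma adjusted p = 0.530) was the lowest of the 10, and all mutant arrays lay inside the range of the controls. Ltbp2, the member of the family that does not bind latent TGF-β, was dim at 5.42 ± 0.09 in mutants and 5.40 ± 0.25 in controls. It differed by 0.03 ± 0.10 (SE; adjusted p = 0.912). Whether the change of Ltbp1 differed from those of the other 3 latency genes was not tested.

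**Figure D2:**
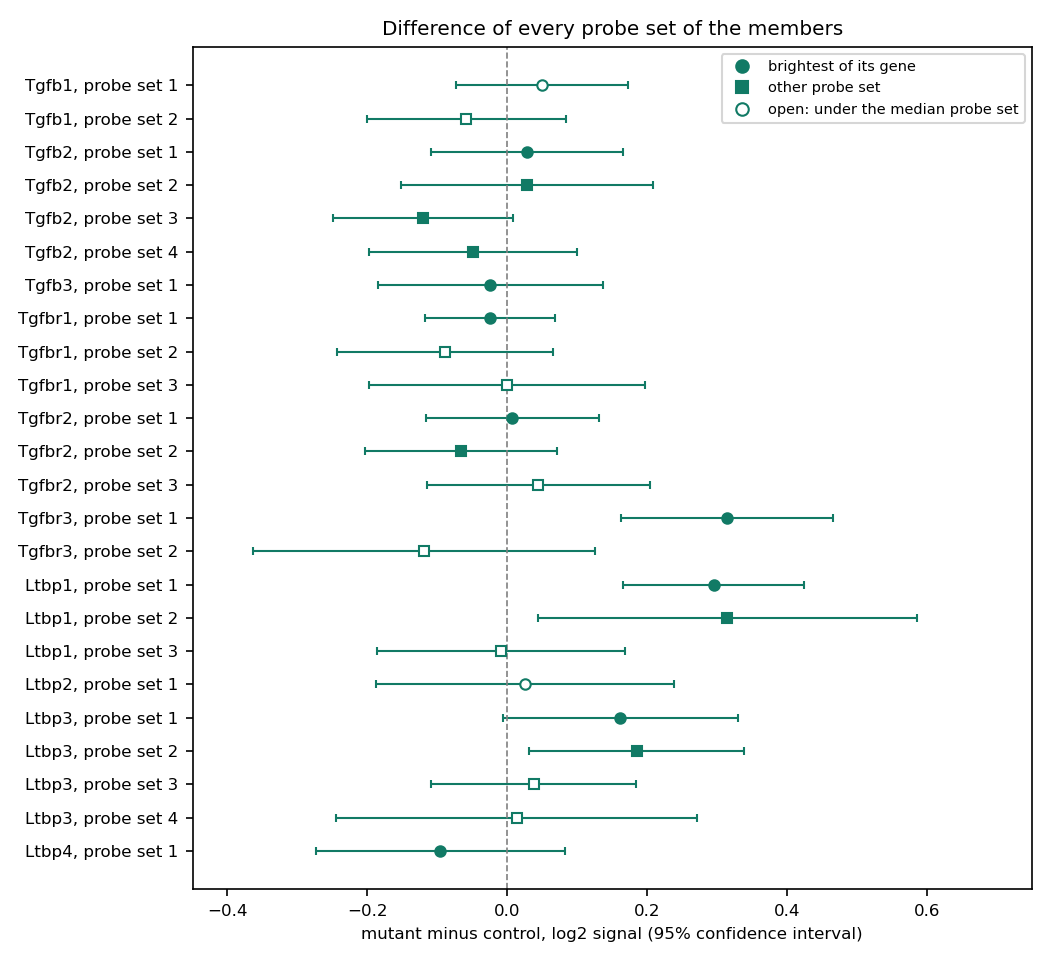
Difference in log2 signal, mutant minus control, with its 95% confidence interval from limma, for each of the 24 probe sets, numbered within a gene from brightest to dimmest. Circles are the brightest probe set of a gene, squares the others, and open symbols lie under the median of all probe sets (6.13). The intervals of the brightest probe sets of Tgfbr3 (0.31) and Ltbp1 (0.29) have the highest lower ends. Those of the second probe sets of Ltbp1 (0.31) and Ltbp3 (0.18) also lie above 0, though neither passed. The intervals of all Tgfb1, Tgfb2, Tgfb3, Tgfbr1 and Tgfbr2 probe sets cover 0.

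Of the 24 probe sets, 14 were bright and 10 lay under the median of all probe sets. When each was tested on its own, 2 passed, both higher in the mutant, where 7.49% of all probe sets did and 3.87% were higher. These were the brightest of Ltbp1 and of Tgfbr3. For Tgfb2 the deviations of the brightest probe set from its genotype means correlated with those of the other 3 at r = 0.91, 0.81 and 0.42 over 12 arrays. The lowest of these was for the probe set at −0.12, which correlated at 0.49 and 0.11 with the remaining ones. For Ltbp1 the brightest correlated at 0.21 with the second probe set and at −0.53 with the dim one. The bright and dim probe sets of Tgfbr3 had r = −0.05, and the brightest of Tgfbr1 and the next r = −0.18. These correlations share arrays and their normalisation and are given without a test.

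**Figure D3:**
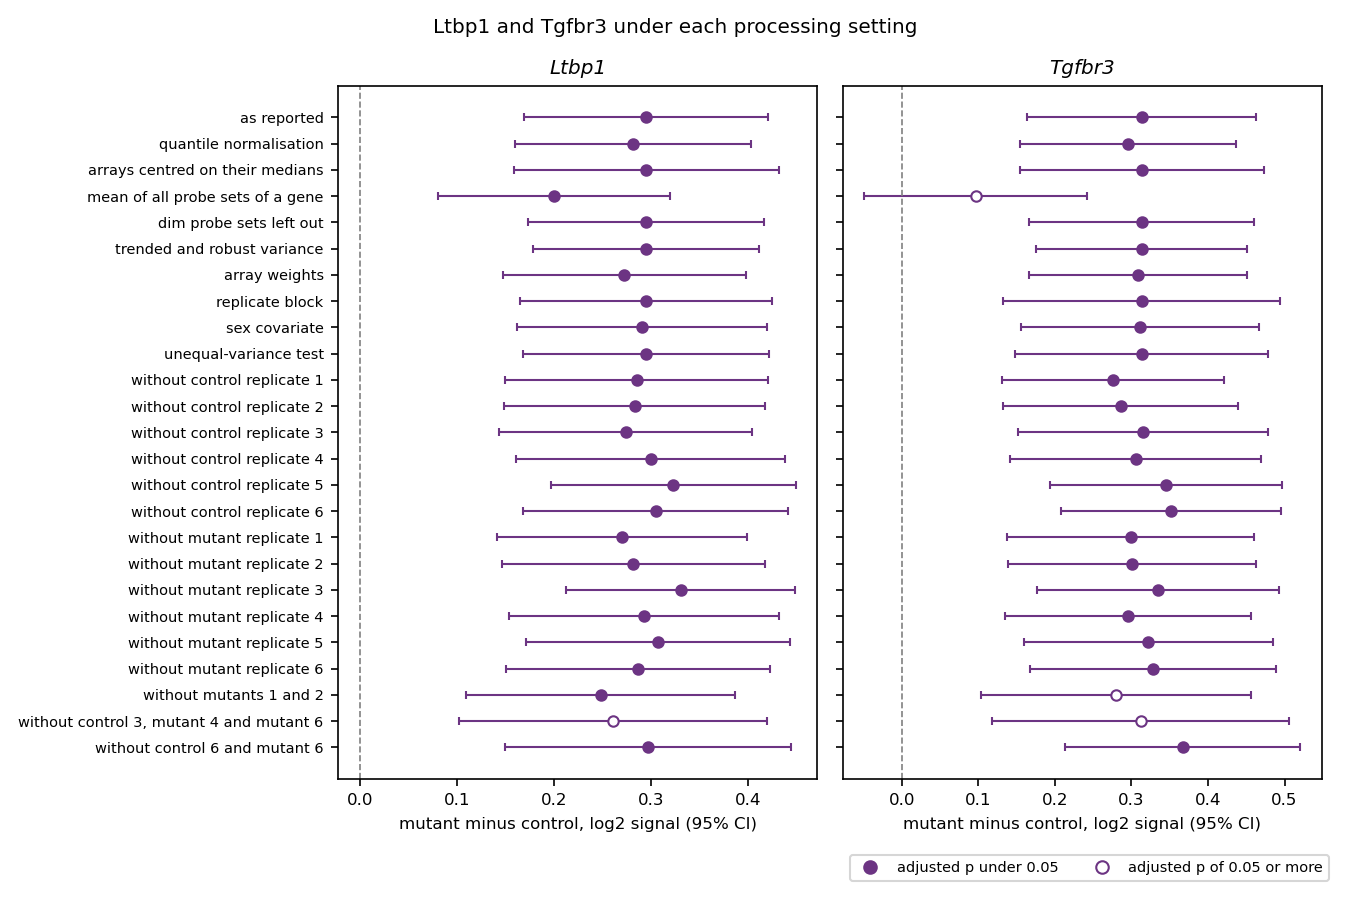
Difference of Ltbp1 (left) and Tgfbr3 (right) in log2 signal, mutant minus control, with its 95% confidence interval, under each way of processing the arrays. Filled points have an adjusted p under 0.05. All points lie above 0, and the lowest Tgfbr3 value (0.10) comes from averaging its bright probe set with the dim one.

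The genes whose within-genotype deviations most resembled those of Tgfbr3 over the 12 arrays were Slc39a7, a zinc transporter (Pearson r = 0.92, Spearman rho = 0.90), Plcb1, a phospholipase C (0.92 and 0.89), and Kmt5b, a histone methyltransferase (0.92 and 0.89). For Ltbp1 they were Baalc (0.90 and 0.95), Triobp, an actin-binding protein (0.89 and 0.87), and 1700008J07Rik (0.87 and 0.88). These are the 3 highest of 12172 genes for each member, so high values arise among them by the choice alone. Plcb1 and Kmt5b rose in the mutant by 0.25 and 0.21, and the other 4 did not pass.

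Some markers of several other cell types were also higher in the mutant. Among all genes 6.30% rose and 4.80% fell. Of 8 mesenchyme markers 5 rose and 1 fell, and their summed linear signal was 21409 to 23827 on mutant arrays and 19158 to 20803 on control arrays, without overlap. Of 6 cartilage markers 3 rose and none fell (sum 2392 to 3220 in mutants and 1661 to 2372 in controls, without overlap). Of 8 epithelium markers 3 rose and none fell (25945 to 36166 in mutants and 17678 to 26065 in controls, with overlap). Of 6 neuron markers 5 rose and none fell (2310 to 4538 in mutants and 1737 to 2268 in controls). Of 6 macrophage markers 1 rose and none fell (3736 to 4412 in mutants and 3426 to 3890 in controls, with overlap). No marker of muscle, mesenchyme, epithelium or macrophages was under the median of all probe sets, and 2 of cartilage and 1 of neurons were. Their part in the rise of Ltbp1 and Tgfbr3 was not tested.

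Genes that store or release TGF-β in the matrix changed in both directions. Of 17 measured, 3 rose and 3 fell, and the median was 0.16 against 0.01 over all genes. Among all genes 6.30% rose and 4.80% fell. Bmp1, a protease known to cut Ltbp1 from the matrix, rose to 9.56 ± 0.11 in mutants, against 9.35 ± 0.05 in controls, with all 6 mutant arrays over the highest control (0.21 ± 0.05 SE; limma adjusted p = 0.0207). The other Bmp1 probe sets differed by 0.22 and, for a dim one, by 0.02. Among all genes 3.40% had groups that did not overlap with the mutant higher. Mmp2, a gelatinase of the matrix, rose by 0.24, and its other probe set differed by as much (0.24). Itgb5, the β5 chain of an αv integrin that can release latent TGF-β, rose by 0.24, with its other 3 probe sets at 0.27, 0.21 and 0.22. No rise in this list was called without mutants 1 and 2, or without control 3, mutant 4 and mutant 6. Without control 6 and mutant 6 none of these 3 genes passed (adjusted p = 0.0535 for Bmp1, 0.0529 for Mmp2 and 0.0714 for Itgb5), and the 1 rise called was of another gene. Leaving out control 4 or mutant 1 gave a count of 1 and ended the call of Bmp1 (adjusted p = 0.0511 and 0.0526), and that of Itgb5 ended in 7 of the 12 single omissions and with the unequal-variance test (adjusted p = 0.0739). Bmp1 differed by 0.17 and Mmp2 by 0.24 without mutants 1 and 2 (adjusted p = 0.122 and 0.0901).

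The 3 that fell were Itgb6, Dcn and Plat. Itgb6, the β6 chain of the epithelial integrin that pulls TGF-β1 and TGF-β3 free of their propeptides, read 4.28, 4.66 and 4.83 (lowest, median and highest) in mutants, and 5.05, 5.24 and 5.60 in controls. All mutant arrays were below all controls, a difference of −0.67 ± 0.11 (SE; limma adjusted p = 0.00164). Among all genes 2.90% had groups that did not overlap with the mutant lower. This Itgb6 probe set was dim in both genotypes, and a dimmer one differed by −0.14. Of the 8 epithelium markers given above 3 rose and none fell, and their summed signals overlapped between genotypes. The part of epithelium in the fall of Itgb6 was not tested. Dcn, a proteoglycan that binds TGF-β, was at 11.38 ± 0.16 in mutants and 11.80 ± 0.21 in controls, and Plat, the tissue plasminogen activator, at 8.43 ± 0.14 in mutants and 8.79 ± 0.21 in controls. The other probe sets of Dcn and Plat were dim and differed by −0.11 and −0.07. Without mutants 1 and 2 Dcn differed by −0.43 (adjusted p = 0.0574) and Plat by −0.38 (adjusted p = 0.0787). The call of Plat also ended without control 5 or without mutant 4 (adjusted p = 0.0519 and 0.0556), with the unequal-variance test (0.0678) and with its probe sets averaged (0.0798), and that of Dcn without control 3, mutant 4 and mutant 6 (adjusted p = 0.109).

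Most partners of the receptors and regulators of the SMADs did not pass. Of 24 measured, 2 rose and 1 fell, with a median of 0.02. These shares, 8.33% and 4.17%, were near those of all genes, 6.30% and 4.80%. Bambi, a receptor decoy without a kinase domain, rose to 8.87 ± 0.13 in mutants, against 8.60 ± 0.08 in controls, and Zfyve9, which brings SMAD2 and SMAD3 to the receptor, to 8.66 ± 0.08 in mutants, against 8.45 ± 0.06 in controls. For each, 5 of the 6 mutant arrays exceeded all controls. Tgfb1i1, also called Hic-5, a focal adhesion protein that TGF-β induces, fell by 0.30 on the log2 scale with all 6 mutant arrays under the lowest control (limma adjusted p = 0.00511). Among all genes 2.90% had groups that did not overlap with the mutant lower. Bambi and Zfyve9 differed by 0.19 and 0.18 without mutants 1 and 2 (adjusted p = 0.0907 and 0.0957), and by 0.28 and 0.18 without control 3, mutant 4 and mutant 6 (0.0853 and 0.109).

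Genes known to respond to TGF-β also divided. Of 17 measured, 4 fell and 2 rose, and the median was 0.03. Among all genes 4.80% fell and 6.30% rose. Tagln, an actin-binding protein, read 9.67, 10.01 and 10.10 (lowest, median and highest) in mutants, and 10.46, 10.88 and 11.19 in controls, and fell by 0.92 (limma adjusted p = 0.000331). Acta2, smooth muscle actin, was at 13.67 ± 0.20 in mutants and 14.12 ± 0.05 in controls, and Ccn2, a matricellular protein, at 9.01 ± 0.34 in mutants and 9.74 ± 0.20 in controls. The other Acta2 probe sets were dim and differed by −0.29 and −0.16. Cdkn1a, a cell cycle inhibitor, fell by 0.60. On all 6 mutant arrays each of these 4 was below every control, as were 2.90% of all genes. The skeletal muscle markers given above were lower on the same arrays. Of 6 other smooth muscle and pericyte markers 1 fell and none rose, and their summed signal overlapped, with 5024 to 5734 in mutants and 4731 to 6277 in controls, while the defining markers Myh11 and Cnn1 lay under the median of all probe sets. The part of either cell type in these 4 falls was not tested.

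The 2 that rose were Cdkn2b and Snai2. Cdkn2b, another cell cycle inhibitor and a textbook TGF-β target, reached 7.39 ± 0.29 in mutants, against 6.83 ± 0.13 in controls, with all 6 mutant arrays over the highest control (0.56 ± 0.12 SE; limma adjusted p = 0.00703). Among all genes 3.40% had groups that did not overlap with the mutant higher. Snai2, a repressor of epithelial genes also made by mesenchyme, rose by 0.22 (limma adjusted p = 0.0417). Its other probe set differed by 0.10, and leaving out 8 of the 12 arrays singly ended its call, which also ended without mutants 1 and 2 (0.18, adjusted p = 0.212), without control 3, mutant 4 and mutant 6 (adjusted p = 0.229) and without control 6 and mutant 6 (adjusted p = 0.0807). Collagens of the list, Col1a1 (0.29), Col1a2 (0.13) and Col3a1 (0.03), named after their values were seen, did not pass.

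**Figure D4:**
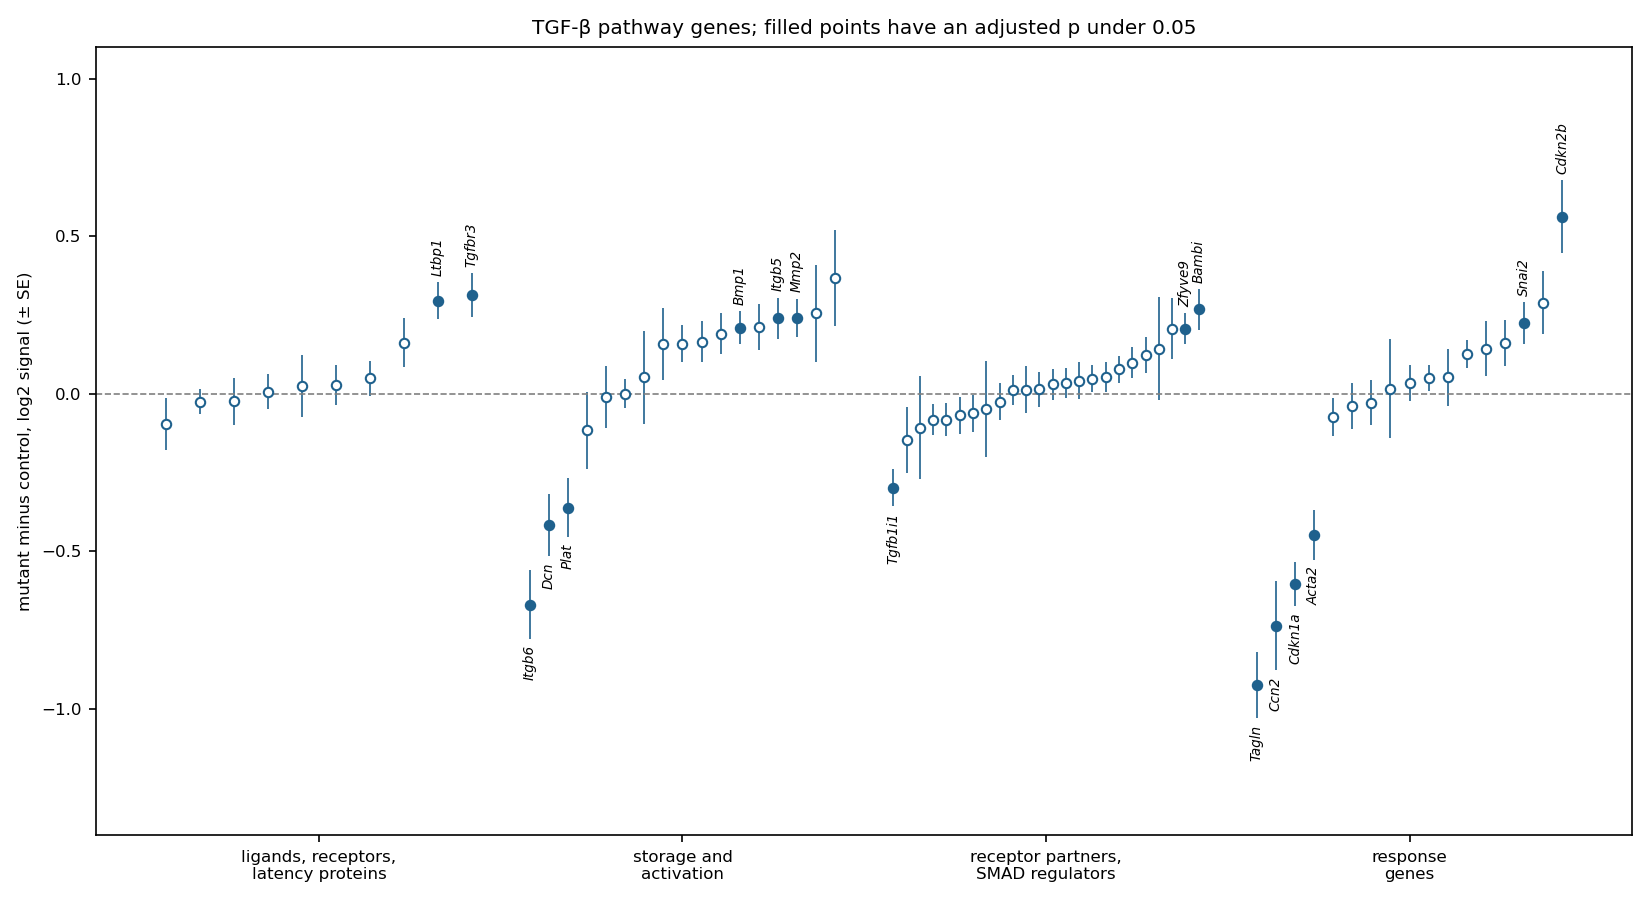
Difference in log2 signal, mutant minus control, ± SE from limma, for the 10 members and the 17, 24 and 17 measured genes of the lists on storage and activation, receptor partners and SMAD regulators, and response, ordered by difference within each list. Filled points, with names, have an adjusted p under 0.05. The largest falls are those of Tagln, Ccn2, Itgb6 and Cdkn1a, and the largest called rise is that of Cdkn2b (0.56).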

How the data were processed

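Tongue samples were hybridised to 6 mutant and 6 control arrays. The sample titles do not say whether a sample held 1 embryo or several. The deposited values are log2 signals per probe set. RMA is the tool that the submitters' processing notes name for them, with no version. Their range, 2.57 to 15.09, gave the log base. Array medians were 6.10 to 6.18, and no normalisation was added, so a shift of most genes would not be seen. Of 45101 probe sets, 64 controls were left out and 34945 had 1 gene symbol in the platform annotation, of which 34741 matched RefSeq. The genotype comparison used limma 3.58.1 and R 4.3.3 (2-sided, Benjamini-Hochberg over 18193 genes, threshold 0.05). On simulated data for this comparison over 18193 genes the fit recovered 42% of genes changed by 0.25, 86% by 0.5 and 98% by 1 on the log2 scale. The simulation changed far fewer genes than passed in the real data and drew independent noise. Its shares are therefore not the power of the real comparison.

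The members and lists were chosen with earlier results of these data known. Named genes are all members, up to 6 passing genes of each pathway list by smallest p, Smad4, and the 3 genes most like each passing member among those brighter than the median probe set. Some genes of the pathway and marker lists are not reported here. Alternatives were 2 other normalisations, averaging the probe sets of each gene, a filter on dim probe sets, other variance models and tests, a replicate block, a sex covariate from 3 Y-linked genes and Xist, and arrays left out. Correlations between arrays ran from 0.991 to 0.997, so none was a duplicate by its values.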

Additional observations from a re-analysis of the deposited data

Results flagged for a closer look

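Over the members and named genes, 64 groups of 6 arrays were checked for an array far from the others of its genotype, and 4 held one. Chance gives about 1 in 20 such groups. Mutant 1 read 11.16 for Tgfb2, under the other mutants at 11.28 to 11.33, and 11.58 for Smad4, under the other mutants at 12.18 to 12.30. Mutant 4 read 11.08 for Dcn, against 11.39 to 11.55 for the other mutants, and control 1 read 14.02 for Acta2, against 14.11 to 14.16 for the other controls. Without mutant 1 Smad4 differed by −0.04 (adjusted p = 0.732) and Tgfb2 by 0.05 (adjusted p = 0.735, limma).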

How the results depend on the processing

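The 2 member calls held under quantile normalisation, centred arrays, the filter on dim probe sets, the trended and robust variance, array weights, the sex covariate, the unequal-variance test and each array left out. Without single arrays Ltbp1 ranged from 0.27 to 0.33 and Tgfbr3 from 0.28 to 0.35, the members called from 2 to 2 higher and 0 to 0 lower. The count of members called higher was 1 with the mean of all probe sets, 1 without mutants 1 and 2, and 0 without control 3, mutant 4 and mutant 6. These array sets, and control 6 with mutant 6, were chosen after seeing the data. Over all genes 875 passed without mutants 1 and 2, and 836 without control 3, mutant 4 and mutant 6, against 2020. Leaving out mutant 1 left 1398. The labels do not say what a replicate number stands for. Same-number correlations were −0.07 to 0.24, so not every pair was above 0.1 and the numbers were not taken as pairing, though 5 of 6 pairs were above it and 4 of 6 mutants correlated best with their own number, a hint of pairing from the data. With the replicate block 1932 genes passed, Ltbp1 had an adjusted p of 0.014 and Tgfbr3 of 0.040, 1 member probe set passed, 1 response gene was higher, and Itgb5 and Snai2 had adjusted p-values of 0.0686 and 0.0629. Member probe sets passing were 1 with the unequal-variance test, 0 without mutants 1 and 2 and 0 without control 3, mutant 4 and mutant 6, and 2 to 2 without single arrays. Storage and activation genes called higher were 1 to 4 without single arrays, 0 without mutants 1 and 2, 0 without control 3, mutant 4 and mutant 6, and 1 without control 6 and mutant 6. Those called lower were 2 to 3, and 1 without mutants 1 and 2. Receptor partners called higher were 4 with the mean of probe sets, 0 without mutants 1 and 2 and 0 without control 3, mutant 4 and mutant 6. Response genes called higher were 1 with centring, the mean of probe sets, the sex covariate, the unequal-variance test and each of the 3 array sets, and 1 to 3 without single arrays. Differences of members that did not pass changed sign as follows. With the mean of probe sets Tgfb1 was −0.00458, Tgfb2 −0.0285 and Tgfbr2 −0.00515. Without mutants 1 and 2 Tgfbr2 was −0.0415 and Ltbp2 −0.00093, and without control 3, mutant 4 and mutant 6 Tgfb2 was −0.0131. Without single arrays the ranges were −0.00128 to 0.0632 for Tgfb2, −0.0683 to 0.0177 for Tgfb3, −0.0241 to 0.0282 for Tgfbr2 and −0.0352 to 0.104 for Ltbp2. The cause of these changes was not tested. Signals near or under the median probe set limit what can be said of Tgfb1 and Ltbp2.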

Other observations

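Among all genes 6.30% rose and 4.80% fell. Of 7 endothelium markers 1 rose and none fell (summed signal 2767 to 3113 in mutants and 2623 to 2935 in controls). Of 4 tendon markers 1 fell and none rose (4678 to 6129 in mutants and 5790 to 8148 in controls). Of 3 measured Schwann cell markers 1 fell and none rose (2197 to 2629 in mutants and 3004 to 3460 in controls). None of 4 erythroid markers passed (limma), and 1 had an unadjusted p under 0.05 (29406 to 32636 in mutants and 31008 to 34787 in controls). The genes of storage and activation that did not pass had their largest difference in Thbs1, a matrix protein known to release latent TGF-β (0.37 ± 0.15 SE, adjusted p = 0.148), named after its value was seen.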
